A study of Mus musculus with 46 samples.

Results

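The genes described here are 10 CC chemokine ligands of the mouse, Ccl2, Ccl3, Ccl4, Ccl5, Ccl7, Ccl8, Ccl12, Ccl17, Ccl22 and Ccl24. They were taken by symbol from a table of raw counts for 23329 genes. All 10 were present, and all 10 passed the filter on low counts in each fit. The table covers 46 RNA sequencing libraries of macrophages sorted from gliomas of 23 mice. From each mouse came 1 library of microglia (MG), which reside in the brain, and 1 of bone marrow-derived macrophages (BMDM), which enter from the blood. The comparisons ask how the ligands differ between these populations and how they change with treatment, first after 5 days and then in tumours that had grown back.

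Every mouse, vehicle controls included, was an nTVA Ink4a/Arf KO/KO animal, which lacks the Ink4a/Arf tumour suppressors and carries the avian TVA receptor. At 5 to 6 weeks of age it was injected in the frontal cortex with DF1 cells, a chicken fibroblast line, carrying RCAS-PDGFB-HA, a retroviral vector for the growth factor PDGFB. The vehicle group had 4 mice. At 5 days there were 4 mice on BLZ945, an inhibitor of the CSF-1 receptor, 2 mice with irradiation (IR) and 3 mice with both (IR+BLZ945). Recurrent tumours were taken from 4 mice treated with IR, 4 treated with IR+BLZ945 and 2 treated with BLZ945. Both populations were sorted as CD45+ CD11b+ Ly6C- Ly6G- cells, and CD49d set BMDM (positive) apart from MG (negative). Because the libraries are bulk samples, fewer cells of a type and less RNA per cell cannot be told apart.

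CC chemokines are small secreted proteins named for a pair of neighbouring cysteines near their start. They bind G protein-coupled receptors on leukocytes and draw those cells along a gradient. Ccl3 and Ccl4 (MIP-1α and MIP-1β) draw monocytes and T cells, and Ccl3 acts through Ccr1 among others. Ccl2, Ccl7, Ccl8 and Ccl12 belong to the monocyte chemoattractant proteins, and Ccl2, Ccl7 and Ccl12 act on Ccr2, the receptor with which inflammatory monocytes leave the bone marrow. Ccl5 (RANTES) draws T cells and monocytes, Ccl17 and Ccl22 draw Ccr4+ T cells, including regulatory T cells, and Ccl24 (eotaxin-2) acts on the eosinophil receptor Ccr3. In brain tumours such ligands are known as products of both tumour cells and macrophages.

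The feature that names the family can be read in the coding sequence. The 30 bases around the 2 cysteine codons are shown for 9 of the genes, 5′ to 3′ on the coding strand, from the GENCODE transcripts of GRCm38, with those codons in capitals. Ccl24 has 2 such pairs, and the later one is shown.
Ccl2: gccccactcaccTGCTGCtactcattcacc
Ccl7: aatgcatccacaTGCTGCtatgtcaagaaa
Ccl8: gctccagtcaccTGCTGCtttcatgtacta
Ccl12: accccagtcacgTGCTGTtataatgttgtt
Ccl4: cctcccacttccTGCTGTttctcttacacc
Ccl5: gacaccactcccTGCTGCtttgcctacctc
Ccl17: gtaggccgagagTGCTGCctggattacttc
Ccl22: gaagacagtatcTGCTGCcaggactacatc
Ccl24: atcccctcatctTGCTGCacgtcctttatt
The codon pair reads TGCTGT in Ccl4 and Ccl12 and TGCTGC in the other genes shown. The longest stretch that any 2 member transcripts shared without a mismatch was 23 bases, between Ccl2 and Ccl7.

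The genes lie in 3 places of the genome (GRCm38, which is mm10). On chromosome 11, Ccl2 (82035571 to 82037453), Ccl7 (82045712 to 82047525), Ccl12 (82101845 to 82103400) and Ccl8 (82115185 to 82116799) form a run on the plus strand. Ccl5 (83525778 to 83530518, minus strand), Ccl3 (83647844 to 83649355, minus strand) and Ccl4 (83662584 to 83664683, plus strand) lie further along the same chromosome. Ccl22 (94745590 to 94751699) and Ccl17 (94810453 to 94812036) are neighbours on the plus strand of chromosome 8. Ccl24 (135569937 to 135573049, minus strand) is on chromosome 5. Only Ccl2 overlaps another annotated gene, Gm17268, and whether the counting used strand is not given in the sources used here.

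The RefSeq promoter table held 5 of the 10 genes, Ccl3, Ccl8, Ccl12, Ccl17 and Ccl22. The 250 bases before the first transcribed base are shown for the neighbours Ccl17 and Ccl22, whose levels moved together in BMDM, and for Ccl8 and Ccl12, which carry the same motif. The RefSeq start of Ccl22, base 94745684, lies inside the GENCODE span given above, which begins at 94745590. The end of its window therefore overlaps that span. Capitals mark motif matches.
Ccl17, GRCm38.p6 chr8:94810203-94810452, plus strand: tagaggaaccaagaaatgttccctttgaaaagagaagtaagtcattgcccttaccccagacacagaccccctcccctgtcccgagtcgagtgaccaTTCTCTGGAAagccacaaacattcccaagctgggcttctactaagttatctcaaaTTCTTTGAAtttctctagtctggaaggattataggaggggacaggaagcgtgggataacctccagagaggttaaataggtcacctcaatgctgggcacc
Ccl22, GRCm38.p6 chr8:94745434-94745683, plus strand: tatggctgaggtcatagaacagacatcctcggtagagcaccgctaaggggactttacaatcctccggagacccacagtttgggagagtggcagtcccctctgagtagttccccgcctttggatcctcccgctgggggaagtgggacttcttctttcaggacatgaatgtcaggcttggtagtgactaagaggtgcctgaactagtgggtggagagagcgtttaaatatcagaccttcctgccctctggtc
Ccl8, GRCm38.p6 chr11:82114935-82115184, plus strand: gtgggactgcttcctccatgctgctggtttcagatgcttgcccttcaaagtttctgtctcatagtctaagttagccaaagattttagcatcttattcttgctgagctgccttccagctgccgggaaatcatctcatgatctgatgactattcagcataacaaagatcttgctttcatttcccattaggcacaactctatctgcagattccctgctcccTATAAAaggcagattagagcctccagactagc
Ccl12, GRCm38.p6 chr11:82101595-82101844, plus strand: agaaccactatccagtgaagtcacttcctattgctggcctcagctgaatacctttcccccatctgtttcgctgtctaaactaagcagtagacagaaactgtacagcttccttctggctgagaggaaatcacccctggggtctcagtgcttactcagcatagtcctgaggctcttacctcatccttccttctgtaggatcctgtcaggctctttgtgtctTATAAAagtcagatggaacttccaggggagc
The TATA box TATAAA stood 27 to 32 bases before the start of Ccl8 and 26 to 31 bases before that of Ccl12, and 12.4% of 32851 promoters hold it on either strand. Ccl17 held TTCTCTGGAA, a match to the STAT6 consensus (TTC and GAA with any 4 bases between them) that 5.85% of promoters have, 145 to 154 bases before its start. It also held TTCTTTGAA, a match to the STAT motif TTCNNNGAA found in 7.02% of promoters, 91 to 99 bases before its start. The kappaB consensus (7.25% of promoters), TGANTCA (6.75%), TGACGTCA (1.55%) and CACGTG (6.02%) were searched on both strands as well, and none of the 5 windows held these letters. The motifs do not overlap each other in these windows.

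Library totals ranged from 3007379 to 16993474 counts (median 11730650.5), and the 10 genes took 0.122% to 1.61% of them. Levels are given as log2 CPM (counts scaled to a common library size) with a prior count of 1, on which scale a library without a count stands at -3.53. Itga4, the gene of the sorting marker CD49d, lay between 0.60 and 3.35 in MG and between 4.94 and 7.55 in BMDM, with no overlap. Ptprc, the gene of CD45, lay between 7.71 and 10.01 over both populations, and Csf1r, the gene of the CSF-1 receptor, between 9.39 and 13.56. Cdkn2a, the gene of the Ink4a/Arf locus, stood between -3.53 and 1.34. A total of 6 libraries are doubted. These are the BMDM libraries of mice 122 and 124 (BLZ945, 5 days), the MG library of mouse 65971 (IR+BLZ945, 5 days) and the MG library of mouse 68344 (IR, recurrent), with fewer than 11000 genes at 10 or more counts each. The others are both libraries of mouse 65698 (IR, 5 days), whose profiles of sex-linked genes were unlike each other, while those of the other 22 mice matched. The BMDM library of mouse 65698 also fell under the limit of 11000, with 10148 genes at 10 or more counts. Comparisons with IR at 5 days, which has 2 mice, therefore have a doubted mouse in them.

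**Figure D1:**
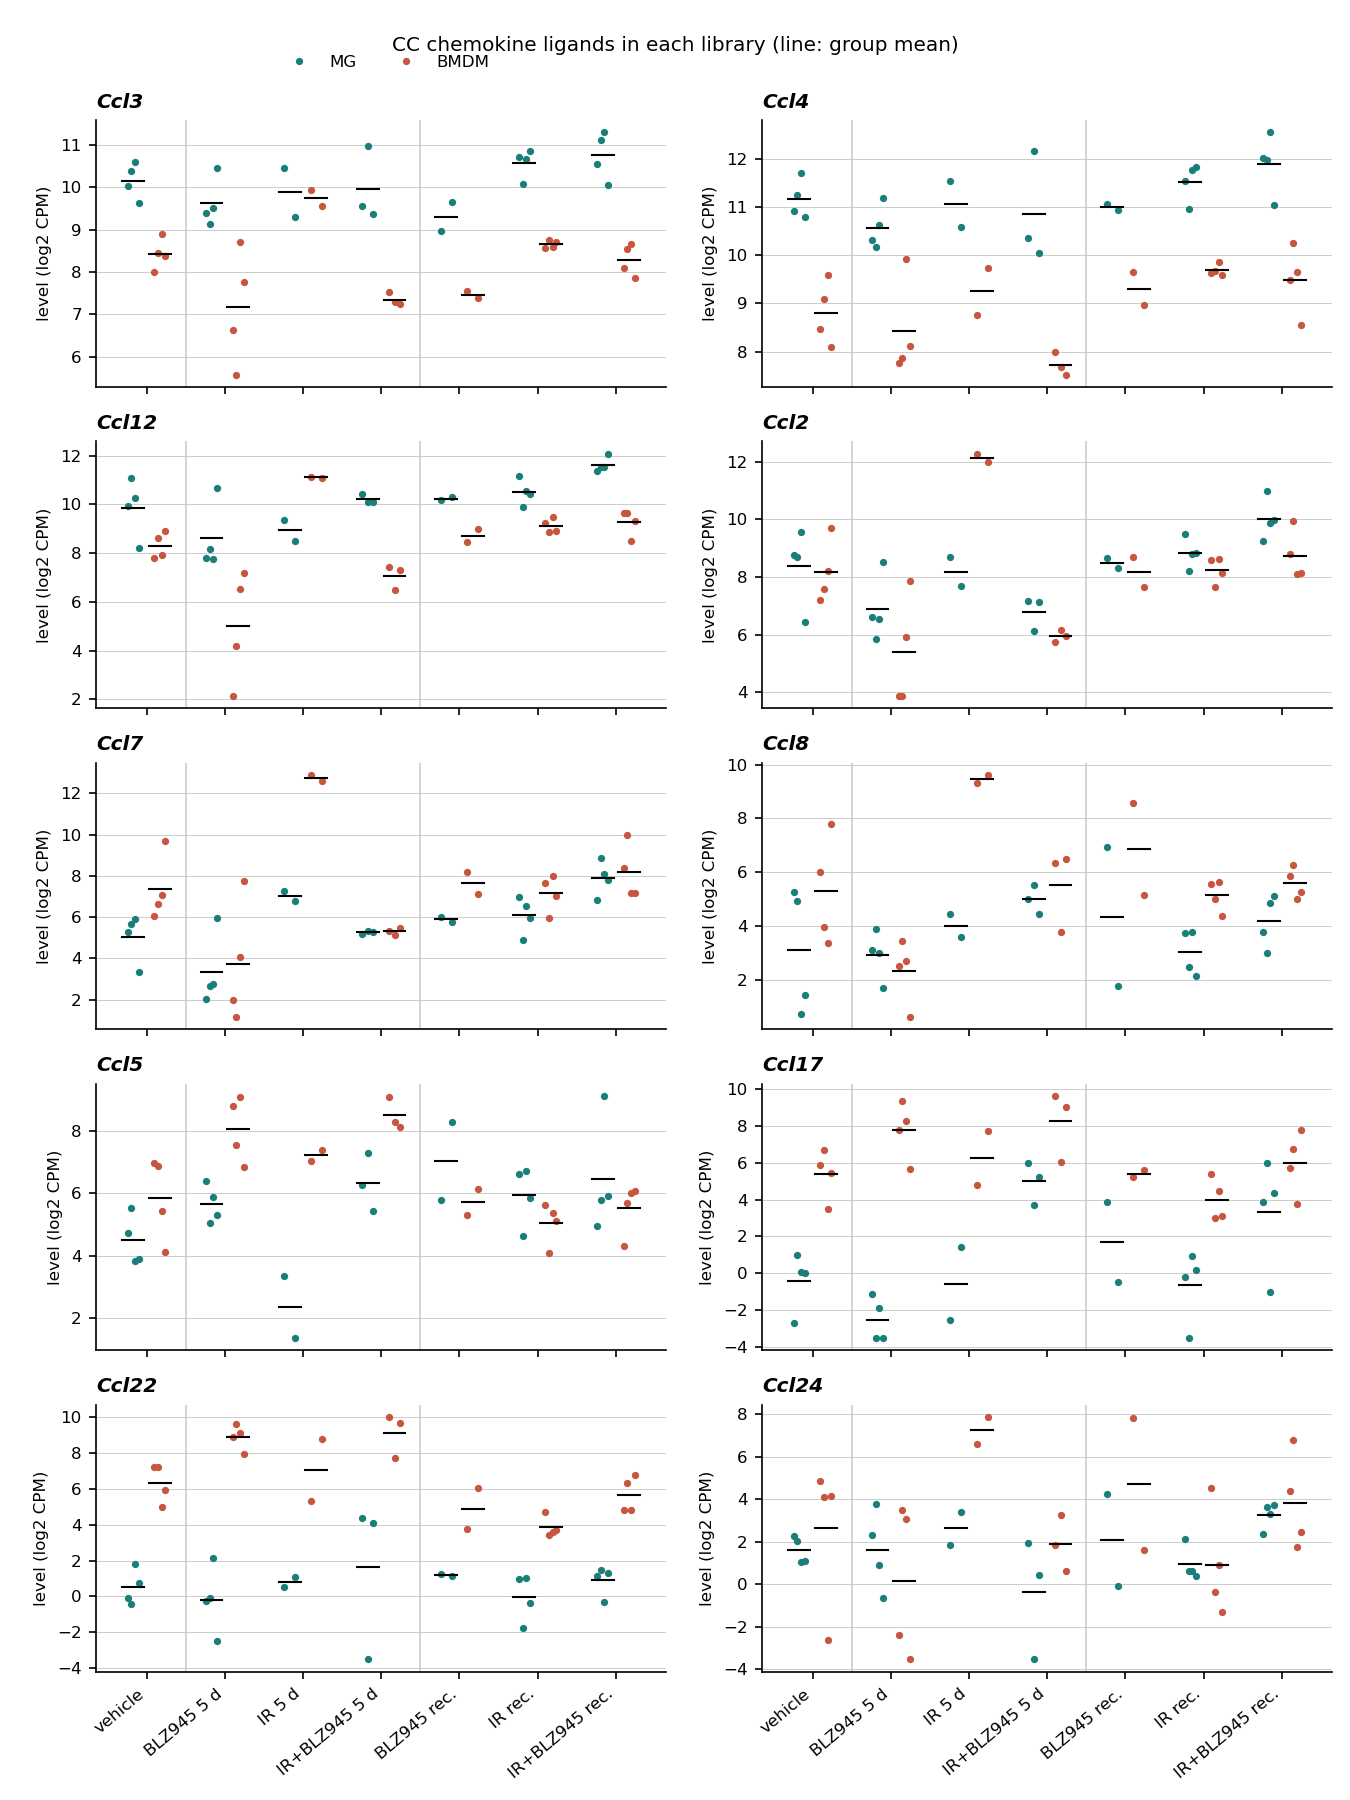
Level (log2 CPM) of each CC chemokine ligand in every MG (green) and BMDM (orange) library by treatment group, with a black line at the group mean; scales differ between genes. Ccl3 and Ccl4 lie higher in MG, Ccl17 and Ccl22 lie higher in BMDM, and the 2 BMDM libraries of IR at 5 days hold the highest Ccl2, Ccl7 and Ccl8 levels.

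Per kilobase of transcript, MG and BMDM shared their leading ligands by the median over all libraries of each population. In MG the median levels were 3264 CPM per kilobase for Ccl4, 2297 for Ccl12, 1410 for Ccl3 and 498 for Ccl2. In BMDM the order of these genes was the same, with 822 for Ccl4, 730 for Ccl12, 434 for Ccl3 and 336 for Ccl2. By this median both populations had most of Ccl3, Ccl4 and, of the monocyte chemoattractants, Ccl12 and Ccl2. The order did not hold for the group means of BMDM at 5 days. After IR, Ccl7 (8662) and Ccl2 (5545) exceeded Ccl4 (979). After IR+BLZ945, Ccl17 (897) and Ccl5 (705) exceeded Ccl4 (324). After BLZ945, Ccl5 (600) and Ccl17 (598) came after Ccl4 (643) and exceeded Ccl3 (256). The lower ranks differed. Ccl17 and Ccl22 had medians of 1.88 and 0.839 CPM per kilobase in MG and 101 and 36.4 in BMDM, and Ccl24 stood at 2.89 and 6.40. Ccl5 lay at 103 and 132, Ccl7 at 76.2 and 174, and Ccl8 at 26.8 and 74.2.

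The make-up of the pool shifted with treatment in BMDM. Ccl3 and Ccl4 made up between 50.3% and 75.2% of the summed CPM per kilobase in each MG group on average, and between 9.40% and 49.8% in the BMDM groups. In BMDM, Ccl17 and Ccl22 together held 5.39% with vehicle, 32.4% after 5 days of BLZ945 and 35.8% after 5 days of IR+BLZ945. Their share then stood at 3.28% and 5.58% in the recurrent tumours of those treatments. Ccl5 followed the same course, with 5.59% with vehicle, 22.8% and 25.5% at 5 days and 3.40% and 2.49% at recurrence. After 5 days of IR alone, the monocyte chemoattractants Ccl2, Ccl7, Ccl8 and Ccl12 made up 87.2% of the BMDM pool, against 47.0% with vehicle. The pool was also larger there, with 21678 and 23466 summed CPM per kilobase in the 2 libraries against 2110 to 4375 in the 4 vehicle libraries.

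**Figure D2:**
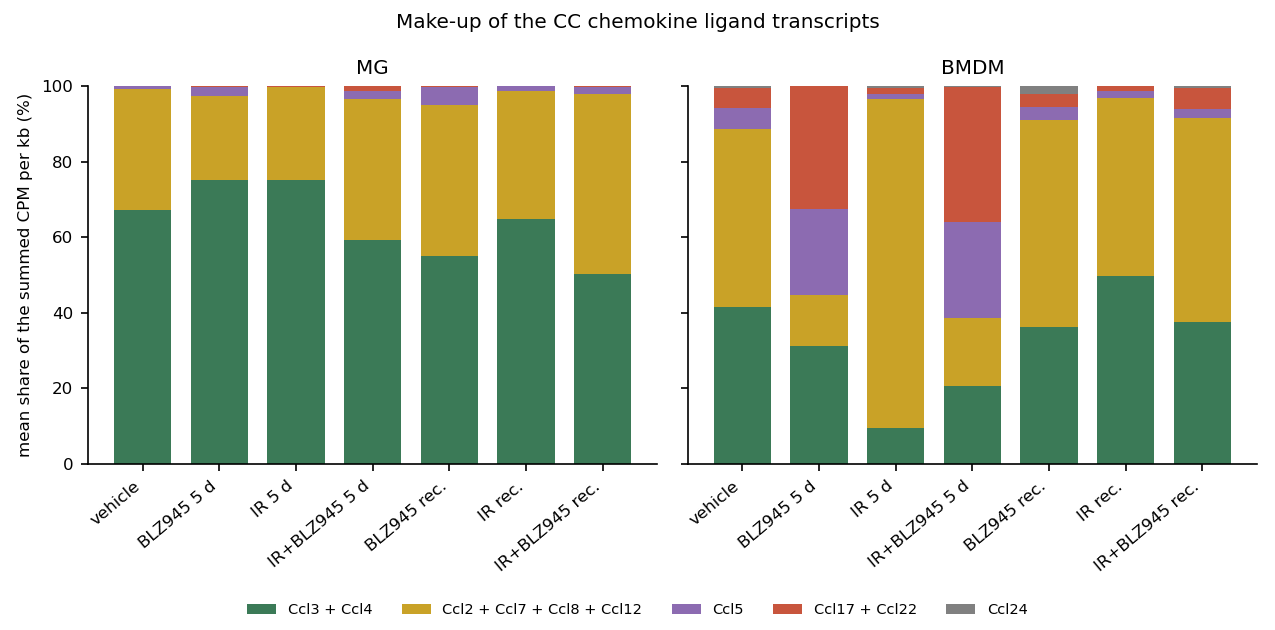
Mean share (%) of each gene or gene set in the summed CPM per kilobase of the 10 ligands, by treatment group, in MG (left) and BMDM (right); each bar sums to 100%. Ccl17 with Ccl22 and Ccl5 widen in BMDM after 5 days of BLZ945 with or without IR, and Ccl2 with Ccl7, Ccl8 and Ccl12 fill 87.2% of the BMDM bar after IR.

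The largest number of calls fell between the cell populations. Of 70 tests of MG against BMDM (10 genes at 7 stages), 29 passed an adjusted p of 0.05 in edgeR's quasi-likelihood test, 13 higher in MG and 16 lower. The share of members that passed, 41.4%, stands beside 8.47% of all gene tests. All 13 calls toward MG were Ccl3, Ccl4 and Ccl12, and 11 of the 16 toward BMDM were Ccl17 and Ccl22. The member medians of the log2 fold change ran from -4.56 (IR at 5 days) to 0.31, and the medians over all genes from -0.03 to 0.19. With the mouse as a replicate block, 33 tests passed, and the 29 calls were among them. Between 5 days and recurrence in BMDM the share of member tests that passed was 43.3%, beside 7.69% of all gene tests. For BMDM against vehicle and for combined against single treatment it was 8.33% and 12.5%, beside 1.51% and 1.48%. In MG the recurrence, vehicle and combination shares were 16.7%, 5% and 2.5%. These lay near the 15.9%, 4.74% and 2.52% of all gene tests.

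**Figure D3:**
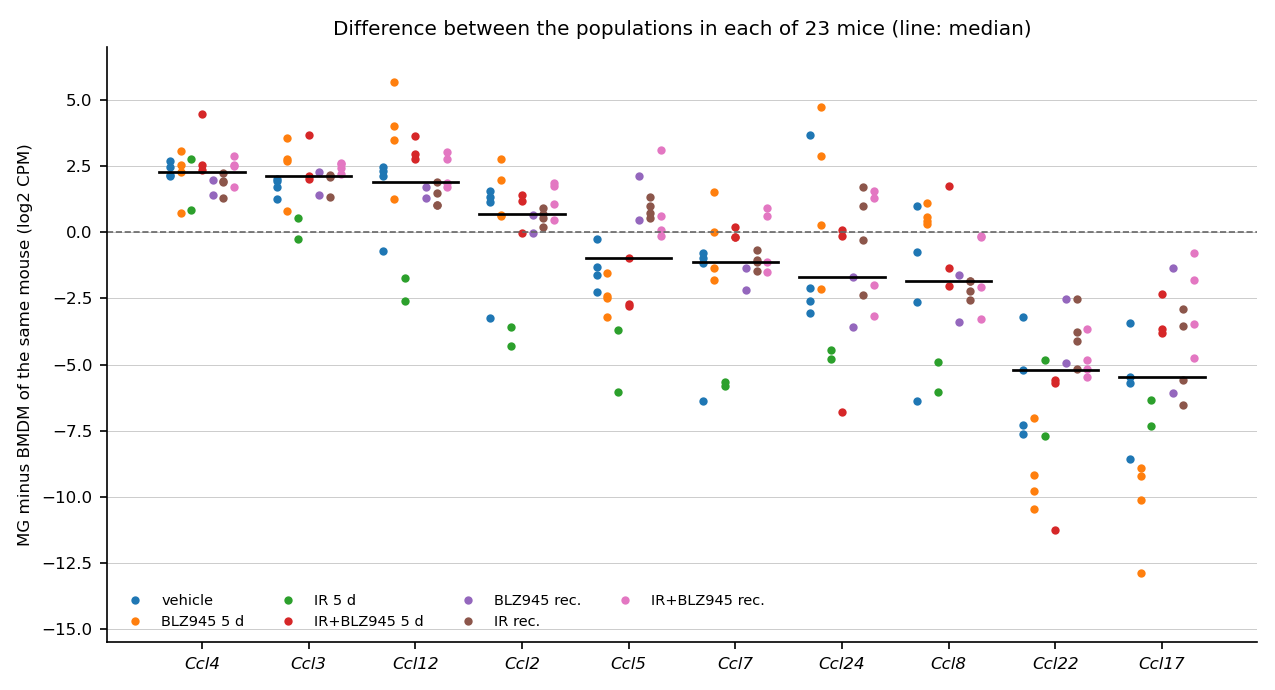
MG level minus BMDM level of the same mouse (log2 CPM) for each ligand, 1 point per mouse coloured by treatment group, black line at the median of 23 mice, dashed line at no difference. All 23 mice lie above the line for Ccl4, and all 23 lie below it for Ccl17 and Ccl22.

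Ccl3 and Ccl4, the macrophage inflammatory proteins, were the steady microglial products. Ccl4 was higher in MG than in BMDM of the same mouse in 23 of 23 mice, by a median of 2.29 on the log2 scale, and Ccl3 in 22 of 23, by 2.12. With vehicle, Ccl4 stood at 10.92, 11.24, 11.70 and 10.79 in the MG libraries and at 8.47, 9.08, 9.59 and 8.09 in the BMDM libraries. The populations did not overlap. Ccl3 stood at 10.02, 10.39, 10.60 and 9.62 in MG and at 8.01, 8.45, 8.89 and 8.38 in BMDM, again without overlap. The log2 fold change of MG over BMDM was 2.29 ± 0.45 for Ccl4 (SE, edgeR adjusted p = 0.00043, n = 4 mice) and 1.74 ± 0.41 for Ccl3 (adjusted p = 0.0038). Of all genes, 9.14% passed in that comparison, and of the members Ccl3, Ccl4, Ccl17 and Ccl22.

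Both genes passed again at 5 days of BLZ945 (21.8% of all genes passed), at 5 days of IR+BLZ945 (12.8%), in recurrent tumours after IR (1.91%) and after IR+BLZ945 (4.41%). The largest difference was that of Ccl4 at 5 days of IR+BLZ945. Ccl4 stood there at 10.35, 12.16 and 10.05 in MG and 7.99, 7.69 and 7.51 in BMDM, and the log2 fold change was 3.44 ± 0.54 (adjusted p = 3.1e-05, n = 3). The other log2 fold changes lay between 1.87 and 2.79. Neither gene passed at 5 days of IR or in recurrent tumours after BLZ945, with 2 mice each. There Ccl4 differed by 1.81 ± 0.62 (adjusted p = 0.059) and 1.66 ± 0.62 (adjusted p = 0.67), and Ccl3 by 0.24 ± 0.57 and 1.88 ± 0.59. Of these calls, Ccl4 after IR recurrence was lost without the BMDM library of mouse 68343 (adjusted p = 0.060) or the MG library of mouse 68346 (0.051), and the others held with each library left out.

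In MG, Ccl3 and Ccl4 passed in none of the tests over treatment, recurrence and combination, and their log2 fold changes against vehicle lay between -0.79 and 0.76. Of the 14 group means, the 7 MG means of Ccl4 (10.57 to 11.89) all lay above the 7 BMDM means (7.73 to 9.68). The gap between the lowest MG and the highest BMDM mean, 0.89, was the only step between neighbouring group means that exceeded the larger of the 2 SDs. In BMDM, Ccl4 rose between 5 days of IR+BLZ945 (7.99, 7.69, 7.51) and recurrence (9.49, 10.25, 9.65, 8.55), by 1.86 ± 0.50 on the log2 scale (adjusted p = 0.039). The groups did not overlap. That call was lost in 8 of 23 fits with 1 library left out, with an adjusted p of up to 0.144 (without mouse 67537). Those of the compared groups were mice 67537, 67543, 65971, 65696, 67947 and 67169. Ccl3 was lower in BMDM after 5 days of IR+BLZ945 (7.53, 7.29, 7.24) than of IR (9.93, 9.56), a log2 fold change of -2.39 ± 0.52 (adjusted p = 0.019). It was lost without mouse 65698 (0.149), 65696 (0.065), 65971 (0.054) or 67537 (0.052).

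Among the monocyte chemoattractants, Ccl12 sided with MG. This mouse gene, a Ccr2 ligand, was higher in MG than in BMDM of the same mouse in 20 of 23 mice, by a median of 1.92. After 5 days of BLZ945 its levels were 7.80, 8.17, 7.77 and 10.67 in MG and 2.13, 4.17, 6.51 and 7.20 in BMDM, without overlap. The log2 fold change was 3.18 ± 0.64 (adjusted p = 0.00028, n = 4). It stood at 1.90 (adjusted p = 0.014) without the MG library of mouse 65975, which lay well above the other MG libraries. At 5 days of IR+BLZ945 the MG levels of 10.41, 10.11 and 10.09 stood against 7.43, 6.48 and 7.32, a log2 fold change of 3.08 ± 0.74 (adjusted p = 0.0044, n = 3). In recurrent tumours after IR+BLZ945, all MG levels (11.35, 11.51, 11.52, 12.08) exceeded all BMDM levels (9.65, 9.66, 8.51, 9.32), by 2.29 ± 0.62 (adjusted p = 0.021). That last call was lost without the BMDM libraries of mice 67947 (0.094) or 68362 (0.075) or the MG library of mouse 68362 (0.072).

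The 2 mice with 5 days of IR went the other way. There the BMDM held the chemoattractants at levels seen in no other library of either population for Ccl2, Ccl7 and Ccl8. In BMDM, Ccl2 stood at 12.27 (mouse 65698) and 11.99 (mouse 65972), and the MG libraries of the same mice had 8.69 and 7.67. Ccl7 stood at 12.91 and 12.59 in BMDM against 7.25 and 6.77 in MG, and Ccl8 at 9.34 and 9.63 against 4.44 and 3.58. For each of these genes BMDM lay higher in both mice, though the 2 libraries of mouse 65698 had unlike sex-linked profiles. The log2 fold changes of MG over BMDM were -3.87 ± 1.01 for Ccl2 (adjusted p = 0.011), -5.73 ± 1.55 for Ccl7 (0.014) and -5.43 ± 1.44 for Ccl8 (0.012), while 9.09% of all genes passed. Ccl12 did not pass (-2.10 ± 0.87, adjusted p = 0.13), with 11.12 and 11.08 in BMDM and 9.38 and 8.49 in MG. Ccl2 was lost without the MG library of mouse 65972 (adjusted p = 0.208) or the BMDM library of mouse 65698 (0.057). Ccl7 and Ccl8 were lost without the MG library of mouse 65972 (0.235 and 0.213) or 65698 (0.113 and 0.079), and Ccl7 also without the BMDM library of mouse 65698 (0.066). Without the doubted libraries, which leaves 1 mouse whose spread is assumed to be that of the other groups, the log2 fold changes of Ccl2, Ccl7 and Ccl8 were -4.32, -5.82 and -6.06 (adjusted p = 0.078, 0.126 and 0.143).

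Against vehicle, Ccl2 rose in the BMDM of IR-treated mice. The vehicle levels were 7.19, 7.57, 8.19 and 9.70, all below the 12.27 and 11.99 after IR, and the log2 fold change was 3.66 ± 0.82 (adjusted p = 0.032). It was the only one of 10 members to pass there, with 1.07% of all genes. The other members of the set had values of 4.65 ± 1.24 for Ccl7 (adjusted p = 0.067), 3.23 ± 0.93 for Ccl8 (0.095) and 2.76 ± 0.70 for Ccl12 (0.055). The Ccl2 call was lost without the library of mouse 65698 (0.151) or vehicle mice 78 (0.105), 41 (0.092) or 65966 (0.091), and without the doubted libraries (0.052). In MG the same contrast gave -0.42 ± 0.69 for Ccl2 and 1.74 ± 0.79 for Ccl7, and no member passed, with 1.99% of all genes called. The response in MG minus that in BMDM was -4.08 ± 1.16 for Ccl2 (adjusted p = 0.18) and -3.91 ± 1.08 for Ccl12 (0.15), so a difference between the populations did not pass in edgeR, while DESeq2 called both.

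**Figure D4:**
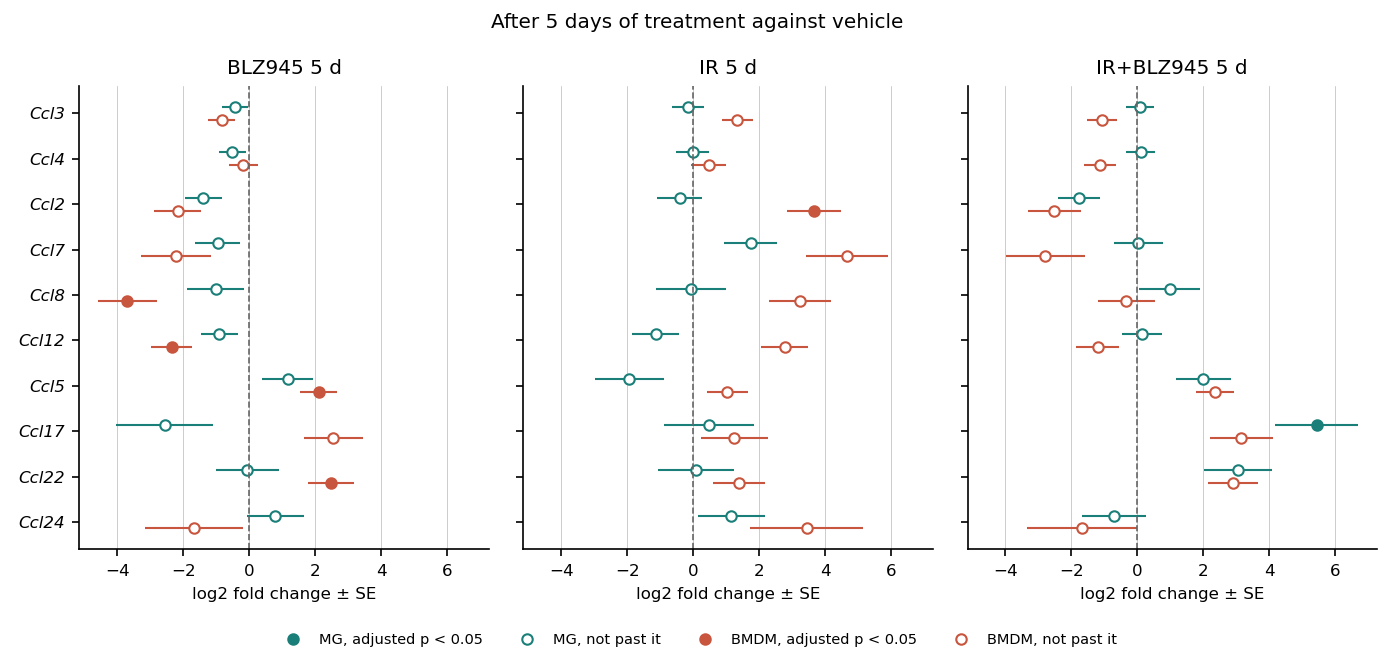
Log2 fold change ± SE of each ligand after 5 days of BLZ945, IR or IR+BLZ945 against vehicle, in MG (green) and BMDM (orange); filled points passed an adjusted p of 0.05. In MG the only filled point is Ccl17 under IR+BLZ945, and in BMDM those under BLZ945 are Ccl5, Ccl8, Ccl12 and Ccl22 and that under IR is Ccl2.

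BLZ945 given with IR was accompanied by far lower levels of Ccl2, Ccl7 and Ccl12 in BMDM than IR alone. At 5 days of IR+BLZ945, Ccl2 stood at 5.75, 6.15 and 5.95, Ccl7 at 5.34, 5.15 and 5.47 and Ccl12 at 7.43, 6.48 and 7.32. All were below the libraries of IR alone given above. The log2 fold change of IR+BLZ945 over IR was -6.17 ± 1.01 for Ccl2 (adjusted p = 0.0026), -7.43 ± 1.57 for Ccl7 (0.016) and -3.96 ± 0.80 for Ccl12 (0.012). These and Ccl3 were the 4 members of 10 that passed, with 2.36% of all genes. Ccl8 had -3.56 ± 1.05 (adjusted p = 0.069). The Ccl2 call held with each library left out. Ccl7 was lost without mouse 65696 (0.077), 65698 (0.060), 65971 (0.055) or 67537 (0.051), and Ccl12 without mouse 65698 (0.059) or 65696 (0.053).

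BLZ945 alone was also followed by lower levels of Ccl12 and Ccl8 in BMDM, calls that did not hold without the doubted libraries. Against vehicle, Ccl12 fell from 7.79, 8.61, 7.94 and 8.89 to 2.13, 4.17, 6.51 and 7.20, a log2 fold change of -2.34 ± 0.62 (adjusted p = 0.030). The groups did not overlap. Ccl8 went from 6.02, 3.94, 3.37 and 7.81 to 2.52, 3.43, 2.68 and 0.60, a log2 fold change of -3.69 ± 0.89 (adjusted p = 0.018), and these groups overlapped. Ccl2 and Ccl7 had -2.17 ± 0.71 (0.074) and -2.22 ± 1.05 (0.21). In this comparison 4 of 10 members passed, Ccl5 and Ccl22 upward, and 5.51% of all genes. Without vehicle mouse 65967, Ccl8 had -2.28 and was lost (adjusted p = 0.086). Ccl12 was lost without mouse 65967 (0.066), 78 (0.059) or 123 (0.058). Without the doubted libraries, which leaves 2 mice on BLZ945, none of the 4 passed (adjusted p from 0.079 to 0.38).

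Between 5 days and recurrence in BMDM, Ccl2, Ccl7 and Ccl8 fell after IR, and Ccl8 and Ccl12 rose after BLZ945. After IR, Ccl2 stood at 8.59, 7.65, 8.61 and 8.12, Ccl7 at 7.66, 5.98, 7.99 and 7.02 and Ccl8 at 5.57, 5.01, 5.62 and 4.35, all below both 5-day libraries. The log2 fold changes were -3.86 ± 0.82 for Ccl2 (adjusted p = 0.0052), -5.43 ± 1.28 for Ccl7 (0.0098) and -4.29 ± 0.96 for Ccl8 (0.0076). All 3 held with each library left out. Ccl12 had -1.97 ± 0.69 (adjusted p = 0.065). Of the 10 members 5 passed, Ccl5 and Ccl22 among them, and 12.5% of all genes passed. After BLZ945, Ccl8 rose to 8.56 and 5.16 (5.12 ± 1.00, adjusted p = 0.0056) and Ccl12 to 8.45 and 8.99 (2.74 ± 0.70, 0.022), both above all 5-day libraries. Ccl2 and Ccl7 had 1.96 ± 0.80 (adjusted p = 0.16) and 1.87 ± 1.18 (0.40). In that comparison 4 members and 6.82% of all genes passed. Without mouse 67668, Ccl8 had 2.56 and was lost (adjusted p = 0.262), and Ccl12 was lost (0.083), as it was without mouse 70696 (0.129). Of the BLZ945 mice at 5 days, 3 carry numbers of 3 digits, and a term for the number style in the model ended all 4 calls (Ccl8 4.72, adjusted p = 0.081; Ccl12 2.18, 0.138; Ccl22 -2.51, 0.165; Ccl5 -0.96, 0.459).

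After IR+BLZ945 the recurrent tumours had more Ccl2 than those at 5 days in both populations. In MG, Ccl2 rose from 7.15, 6.11 and 7.13 to 9.26, 10.99, 9.85 and 9.98 (3.17 ± 0.68, adjusted p = 0.0031), without overlap, and the call held with each library left out. Ccl7 rose in MG from 5.17, 5.33 and 5.27 to 6.86, 8.86, 8.09 and 7.80 (2.68 ± 0.80, adjusted p = 0.018), also without overlap, and was lost only without the library of mouse 65696 (0.0502). In BMDM, Ccl2 went from 5.75, 6.15 and 5.95 to 8.78, 9.93, 8.09 and 8.12 (2.99 ± 0.82, adjusted p = 0.045). That BMDM call was lost in 13 of 23 fits with 1 library left out, with an adjusted p of up to 0.151 (without mouse 65696). Those of the compared groups were mice 65696, 67543, 67537, 65971, 67169 and 67947. In MG 3 members and 28.1% of all genes passed, and in BMDM 4 members and 3.69%.

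Ccl7 in MG of recurrent tumours after IR+BLZ945 was also above vehicle (5.27, 5.66, 5.93 and 3.32), by 2.72 ± 0.72 on the log2 scale (adjusted p = 0.035) and without overlap. Here 2 of 10 members passed, Ccl7 and Ccl17, and 4.82% of all genes. The Ccl7 call was lost in 6 of 23 fits with 1 library left out, those without vehicle mice 65967 (0.124), 41 (0.085) and 65966 (0.054) and recurrent mice 67543 (0.103), 67947 (0.082) and 68362 (0.058). In BMDM no member passed against vehicle in any recurrent group (0%, 1.87% and 0.0275% of all genes after BLZ945, IR and IR+BLZ945) or after 5 days of IR+BLZ945 (0.570%). Ccl8 in BMDM was higher after 5 days of IR+BLZ945 (6.33, 3.76, 6.49) than of BLZ945 alone, by 3.36 ± 0.90 (adjusted p = 0.043, 3.58% of all genes), without overlap. That call was lost in 14 of 23 fits with 1 library left out (adjusted p up to 0.0946, without mouse 65696). Those of the compared groups were mice 65696, 67537, 122, 124 and 65975.

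**Figure D5:**
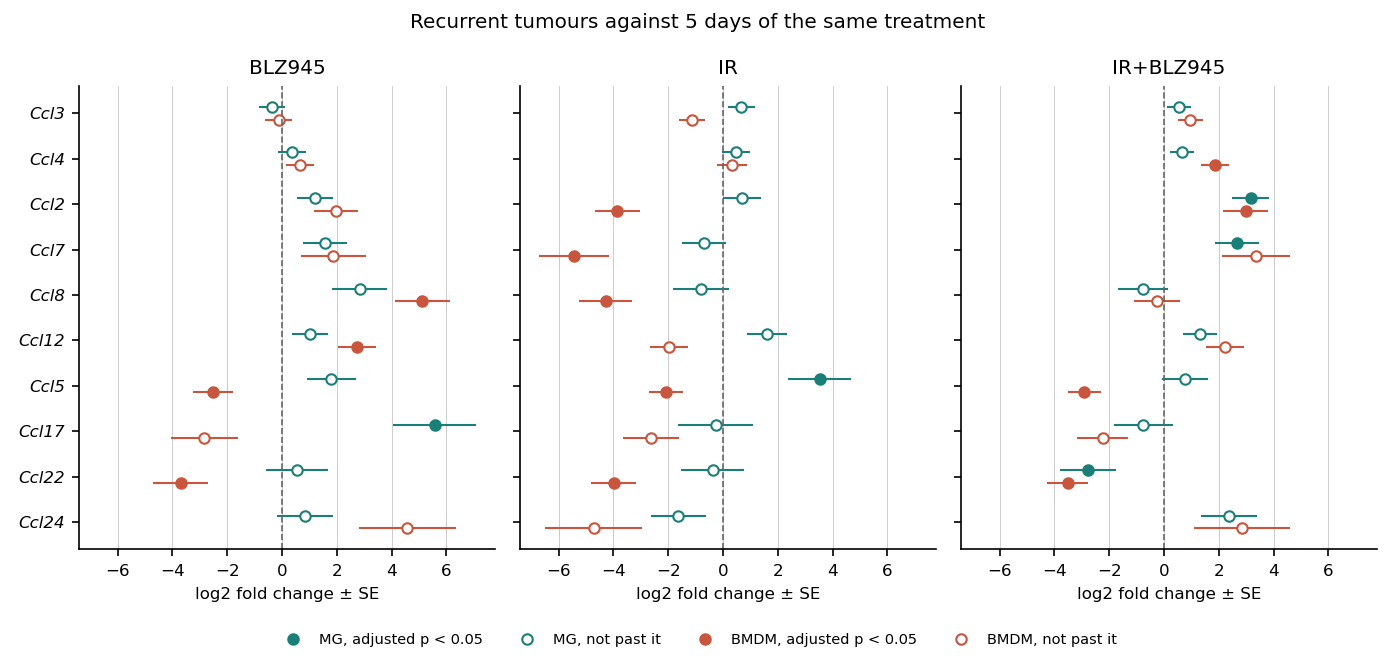
Log2 fold change ± SE of each ligand in recurrent tumours against 5 days of the same treatment, in MG (green) and BMDM (orange); filled points passed an adjusted p of 0.05. In BMDM, Ccl22 and Ccl5 are filled on the left side in all 3 panels, while Ccl2 lies on the left after IR and on the right after IR+BLZ945.

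Recurrent libraries also differed in 2 abundant transcripts that were watched as signs of RNA make-up, Malat1, a nuclear RNA, and Lars2. Lars2 ranged from 5.09 to 15.22 in MG and from 1.90 to 12.98 in BMDM. Its group means in MG were 5.80 to 7.82 at 5 days and 11.89 to 13.97 at recurrence. In BMDM they were 3.09 to 7.90 and 12.03 to 12.52. Those of Malat1 were 11.08 to 11.61 and 8.21 to 9.22 in MG and 11.48 to 13.38 and 8.28 to 9.37 in BMDM. With vehicle, Lars2 ran from 6.15 to 13.87 in MG and from 2.99 to 7.76 in BMDM. The Malat1 means with vehicle were 9.58 in MG and 11.86 in BMDM. Lars2 thus also varied widely within the vehicle libraries of MG, which enter the comparisons with vehicle. Between 5 days and recurrence the Malat1 minus Lars2 level largely followed the stage. A model with it could not tell RNA make-up from recurrence. With the Malat1 minus Lars2 level as a term in the model, none of the 5 MG calls between 5 days and recurrence passed (Ccl2 after IR+BLZ945 2.98, adjusted p = 0.139). Ccl8, which was not called without the term, then passed in MG after IR (-6.02, adjusted p = 0.047) and IR+BLZ945 (-5.23, 0.047). Of the 13 BMDM calls 3 passed, Ccl5 and Ccl8 after BLZ945 and Ccl5 after IR+BLZ945. After IR, Ccl2 then had -2.06 (0.818), Ccl7 -1.79 (0.930), Ccl8 -2.70 (0.804) and Ccl22 -4.69 (0.361), and Ccl4 after IR+BLZ945 had 0.22 (0.889).

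Markers of border-associated macrophages, which line vessels and meninges, moved with the chemoattractants in BMDM. Their summed level over 10 genes (Lyve1, Cd163, Folr2, Siglec1, Cd209f, Pf4, Stab1, F13a1, Cbr2 and Mrc1) was 4094 to 6219 CPM after 5 days of IR. It was 757 to 1491 with vehicle, 389 to 858 after 5 days of IR+BLZ945 and 162 to 809 after 5 days of BLZ945, where Lyve1 and Cd209f were at 0. Of the 10, 1 rose after IR (Mrc1, 2.75 ± 0.67, adjusted p = 0.048), 6 fell after BLZ945 (Folr2 by 4.41, adjusted p = 0.0026) and 5 fell from IR at 5 days to IR recurrence. Of all genes, 1.07%, 5.51% and 12.5% passed in these comparisons. In IR recurrence the sum was 1347 to 1609 CPM. The MG libraries of IR at 5 days had 449 and 654 CPM. Their part in the chemoattractant results was not tested.

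Ccl5, which draws T cells, was raised in BMDM at 5 days of BLZ945. Its levels were 8.78, 7.54, 9.07 and 6.84 after BLZ945 and 6.98, 6.87, 5.44 and 4.13 with vehicle, overlapping only through mouse 65975 (6.84). The log2 fold change was 2.10 ± 0.55 (adjusted p = 0.028), and it was 2.36 ± 0.58 after 5 days of IR+BLZ945 (9.08, 8.27, 8.12, adjusted p = 0.065). The first call was lost without vehicle mice 65966 (0.085) or 65967 (0.057) or BLZ945 mice 124 (0.076) or 122 (0.066), and the change was 1.01 without the doubted libraries. At 5 days of BLZ945 the gene was also higher in BMDM than in MG (6.38, 5.06, 5.89, 5.29), without overlap, by 2.57 ± 0.72 (adjusted p = 0.0076), a call that held with each library left out. Without the doubted libraries that difference was 1.48 (adjusted p = 0.20). With IR, at 5 days, the MG levels were 3.35 and 1.35 and the BMDM levels 7.03 and 7.38, a log2 fold change of MG over BMDM of -4.56 ± 1.12 (adjusted p = 0.0066). Without the MG library of mouse 65972 it was lost (0.179).

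Ccl5 fell in BMDM between 5 days and recurrence after each treatment. After IR+BLZ945 it went from 9.08, 8.27 and 8.12 to 4.32, 5.69, 6.01 and 6.06, a log2 fold change of -2.90 ± 0.59 (adjusted p = 0.0088). The groups did not overlap, and the call held with each library left out. After IR it went from 7.03 and 7.38 to 5.63, 4.10, 5.38 and 5.11 (-2.08 ± 0.62, adjusted p = 0.033), and after BLZ945 to 5.31 and 6.14 (-2.51 ± 0.74, 0.043), both without overlap. The IR call was lost without mouse 65698 (0.121), 65972 (0.109), 68344 (0.082), 68346 (0.069) or 68345 (0.058). The BLZ945 call was lost in 10 of 23 fits, among the compared mice without 67668 (0.367), 70696 (0.144), 122 (0.075) or 124 (0.074). In MG the gene moved upward after IR, from 3.35 and 1.35 to 6.61, 4.62, 6.69 and 5.83 (3.53 ± 1.14, adjusted p = 0.048). There 11.6% of all genes passed and no other member. The MG call was lost in 14 of 23 fits, among the compared mice without 65972 (0.307), 65698 (0.104), 68345 (0.092), 68343 (0.083) or 68346 (0.066).

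T and NK cells transcribe Ccl5 themselves, and their markers were present in BMDM, although the sort for CD11b+ cells would remove most T cells. The summed level of 14 T and NK cell genes was 75.2 to 513 CPM with vehicle, 212 to 539 after 5 days of BLZ945 and 274 to 374 after 5 days of IR+BLZ945 in BMDM. In recurrent BMDM it was 34.4 to 87.4 after BLZ945, 12.6 to 51.6 after IR and 41.7 to 225 after IR+BLZ945. After 5 days of IR it was 123 to 187 in BMDM, and in MG it was 1.47 to 24.6 over all libraries. No marker of the 14 passed between BLZ945 at 5 days and vehicle in BMDM (5.51% of all genes). Between IR at 5 days and recurrence 4 fell (12.5% of all genes passed). In the BMDM of IR at 5 days, where Ccl5 stood at 7.03 and 7.38, Cd3e and Cd8a were at 0. The sum of 123 to 187 CPM there came from other genes of the list. Their part in the Ccl5 results was not tested.

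Ccl17 and Ccl22, the Ccr4 ligands, belonged to BMDM. Both were higher in BMDM than in MG of the same mouse in 23 of 23 mice, by medians of 5.46 and 5.21 on the log2 scale. With vehicle, Ccl22 stood at 7.21, 7.21, 4.99 and 5.93 in BMDM and at -0.08, -0.41, 1.78 and 0.72 in MG. Ccl17 stood at 5.87, 6.68, 3.51 and 5.46 in BMDM, and its counts in the MG libraries were 1, 20, 13 and 14. Neither gene overlapped between the populations. The log2 fold change of MG over BMDM was -5.90 ± 0.91 for Ccl22 (adjusted p = 1.7e-05) and -5.85 ± 1.20 for Ccl17 (adjusted p = 0.00085).

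After 5 days of BLZ945 the distance was widest. Ccl22 stood at 8.91, 9.65, 9.14 and 7.98 in BMDM and at -0.26, -0.12, 2.13 and -2.48 in MG, and Ccl17 at 7.78, 9.36, 8.24 and 5.68 in BMDM. The MG libraries held 4, 0, 2 and 0 counts of Ccl17, so the fitted log2 fold change of -10.97 ± 1.56 rests on 6 counts. That of Ccl22 was -8.44 ± 1.02 (adjusted p = 6.6e-08). Both vehicle and both BLZ945 calls held with each library left out. Ccl22 also passed at 5 days of IR (-7.14 ± 1.36), at 5 days of IR+BLZ945 (-5.74 ± 1.02) and in recurrent tumours after IR+BLZ945 (-4.96 ± 0.88), and held with each library left out. The IR value was -4.54 without the BMDM library of mouse 65972. It passed in recurrent tumours after IR (-3.58 ± 0.85, adjusted p = 0.015), where it was lost without MG mice 68346 (0.080) or 68344 (0.076) or BMDM mouse 68343 (0.074).

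Ccl17 passed at 5 days of IR (-6.51 ± 1.73, adjusted p = 0.012) but was lost without the MG libraries of mice 65698 (0.144) or 65972 (0.069, log2 fold change -10.33) or the BMDM library of mouse 65972 (0.088). At 5 days of IR+BLZ945 it passed with -3.59 ± 1.19 (adjusted p = 0.041) and was lost without MG mice 65971 (0.149), 67537 (0.091) or 65696 (0.054) or BMDM mice 65696 (0.112) or 67537 (0.068). In recurrent tumours after IR it passed with -4.28 ± 1.14 (adjusted p = 0.036). It was lost there without BMDM mice 68343 (0.168) or 68345 (0.076) or MG mice 68344 (0.140), 68343 (0.134), 68346 (0.127) or 68345 (0.071). In recurrent tumours after BLZ945 no member passed between the populations, with 0.0818% of all genes, and the largest member difference by p was that of Ccl22 (-4.19 ± 1.20, adjusted p = 0.24).

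In BMDM, Ccl22 rose after 5 days of BLZ945 and fell between 5 days and recurrence after each treatment. Against vehicle the change was 2.47 ± 0.71 (adjusted p = 0.043), with no overlap of the levels given above. At 5 days of IR+BLZ945 the levels were 10.03, 7.72 and 9.70, a log2 fold change against vehicle of 2.90 ± 0.74 (adjusted p = 0.080). Ccl17, at 9.63, 6.05 and 9.03 there, had 3.15 ± 0.96 (0.13), and 2.55 ± 0.90 after BLZ945 alone (0.097). The BLZ945 call of Ccl22 was lost in 12 of 23 fits with 1 library left out (adjusted p up to 0.114, without vehicle mouse 65966). Each of the 7 compared mice other than 65975 (65966, 65967, 41, 78, 122, 123 and 124) was among those left out.

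At recurrence Ccl22 in BMDM stood at 3.75 and 6.07 after BLZ945, at 4.74, 3.41, 3.58 and 3.71 after IR and at 4.80, 6.34, 4.85 and 6.76 after IR+BLZ945. No recurrent library reached its 5-day group. The log2 fold changes from 5 days were -3.70 ± 1.00 (adjusted p = 0.030), -3.99 ± 0.82 (0.0039) and -3.52 ± 0.76 (0.013). The 5-day levels after IR were 5.32 and 8.78, and without mouse 65972, the higher one, the change was -1.34 (adjusted p = 0.309). The BLZ945 call was lost without mouse 67668 (0.305) or 70696 (0.059), and the IR+BLZ945 call without mouse 65696 (0.060) or 67169 (0.053). Ccl17 passed in none of the 3 (adjusted p = 0.18, 0.089 and 0.19).

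In MG, Ccl17 was raised where IR and BLZ945 were combined. At 5 days of IR+BLZ945 it stood at 5.99, 3.73 and 5.23 (575, 43 and 435 counts), above all libraries with vehicle and with BLZ945 alone. The log2 fold change was 5.43 ± 1.27 against vehicle (adjusted p = 0.013) and 7.99 ± 1.52 against BLZ945 (0.0054). The first was lost without vehicle mouse 41 (0.056), and the second held with each library left out. In these comparisons Ccl17 was the only member to pass, with 13.4% and 9.84% of all genes. At recurrence after IR+BLZ945 it stood at 3.89, 5.98, -1.02 and 4.34, the third being mouse 67947 with 4 counts, 4.68 ± 1.21 above vehicle (adjusted p = 0.032). That call was lost without vehicle mice 65967 (0.117), 41 (0.098) or 65966 (0.083) or recurrent mice 67543 (0.114) or 68362 (0.055), and without MG mouse 68345 of IR recurrence (0.051).

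After BLZ945 alone, recurrent MG held 135 and 8 counts of Ccl17 against 6 in all at 5 days, a log2 fold change of 5.57 ± 1.52 (adjusted p = 0.025, 8.24% of all genes and no other member). It was 2.11 without mouse 67668 (adjusted p = 0.759), and the call was also lost without mouse 124 (0.067) or 123 (0.066). Ccl22 in MG fell between 5 days of IR+BLZ945 (4.35, -3.53, 4.11) and recurrence (1.14, 1.50, -0.33, 1.28), by 2.78 ± 1.03 on the log2 scale (adjusted p = 0.048). The middle 5-day library, mouse 65971 of the doubted set, had no count. This call was lost in 19 of 23 fits with 1 library left out (adjusted p up to 0.14), those without each of the compared mice but 65971 among them (65696, 67537, 67947, 67169, 68362 and 67543).

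Dendritic cells are known sources of Ccl17 and Ccl22, and the levels of their markers in BMDM are given beside these results. The summed level of 10 dendritic cell genes was 869 to 1630 CPM in BMDM with vehicle, 2846 to 4359 after 5 days of BLZ945 and 3348 to 4336 after 5 days of IR+BLZ945. After 5 days of IR it was 2432 to 2612 CPM, with a mean log2 level over the 10 genes of 4.89 against 5.77 with vehicle, and none of the 10 passed. Ccl22, at 5.32 and 8.78 there, had 1.38 ± 0.79 (adjusted p = 0.37), and Ccl17 had 1.24 ± 1.01 (0.56). At recurrence it was 209 to 589, 118 to 222 and 279 to 759 CPM after BLZ945, IR and IR+BLZ945. Of the 10, 5 rose after BLZ945 against vehicle (Zbtb46 by 2.41 ± 0.55, adjusted p = 0.014), and 5, 5 and 7 fell at recurrence after BLZ945, IR and IR+BLZ945. Of all genes, 5.51% passed in the first comparison and 6.82%, 12.5% and 3.69% in the others. Cd209a fell by 6.80, 7.85 and 6.20 on the log2 scale. In MG the sum was 65.9 to 240 CPM in all groups. In MG at 5 days of IR+BLZ945, where Ccl17 was raised, it was 122 to 157 CPM against 65.9 to 188 with vehicle. Of 9 tested markers 1 rose there, Cd209a (5.45 ± 0.93, adjusted p = 0.0015), beside 13.4% of all genes called.

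Those MG libraries also carried markers of other cells. All 6 choroid plexus markers rose there against vehicle (13.4% of all genes passed), with a summed level of 22.3 to 1759 CPM against 1.04 to 6.13. Of 6 tested markers of Ly6C-high monocytes 3 rose, with a sum of 53.5 to 142 CPM against 4.63 to 14.5 and Fcnb at 0, although the sort took Ly6C- cells. The part of these markers in the Ccl17 and Ccl22 results was not tested.

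Ccl24, the eotaxin, was the least settled of the set. Its highest levels were in BMDM. They were 7.88 in mouse 65972 after 5 days of IR, 7.82 in mouse 67668 at BLZ945 recurrence, whose group partner stood at 1.61, 6.77 in mouse 67543 at IR+BLZ945 recurrence and 6.62 in mouse 65698 after 5 days of IR. It passed in none of 39 comparisons. The difference with the smallest adjusted p was the fall in BMDM from IR at 5 days to IR recurrence (4.51, -0.37, 0.90, -1.32), at -4.72 ± 1.78 (adjusted p = 0.082). No step between neighbouring group means exceeded the larger of the 2 SDs, which reached 4.39.

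The other contrasts of combined with single treatment gave no call. In MG at 5 days against IR (0.227% of all genes), and at recurrence against BLZ945 and IR in both populations (0% each), no member passed in edgeR. At an unadjusted p of 0.05 the members under it were 3 in the first, 3 and 3 at recurrence in MG, and 1 and 2 in BMDM. The counts over all genes were 2957, 687 and 2062 of 14534 in MG and 58 and 241 of 14568 in BMDM. Likewise no member passed in MG after 5 days of BLZ945 (0.303%), or at recurrence after BLZ945 (3.53%) or IR (4.33%), against vehicle. Under an unadjusted p of 0.05 lay 1, 2 and 0 members, beside 1947, 2120 and 1805 of 14534 genes. The tests of whether a response differed between MG and BMDM gave 0 calls in 60, with 13 under an unadjusted p of 0.05 and 3 calls by DESeq2 (Ccl17 under BLZ945 and Ccl2 and Ccl12 under IR, all at 5 days). Of all genes, 1.65%, 0.0755% and 0.358% passed for BLZ945, IR and IR+BLZ945 at 5 days, and 0%, 0.0189% and 0% at recurrence. Under an unadjusted p of 0.05, in the same order, were 2422, 1603 and 1944 of 15901 genes at 5 days. At recurrence the counts were 478, 735 and 518.

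The receptors for these ligands lay mainly on the BMDM side. Of 14 receptor genes, 11 were tested between the populations, and Ccr2 and Ccr7 were lower in MG at each of the 7 stages. With vehicle, Ccr2, the receptor of Ccl2, Ccl7 and Ccl12, differed by -5.01 ± 0.75 (adjusted p = 9.5e-06). Ccr7, the homing receptor of mature dendritic cells, differed by -7.13 ± 0.87 (4.8e-07), Ccr1 by -3.60 ± 0.73 (0.00074) and Ccr3 by -5.39 ± 1.46 (0.012). The Ccr3 levels overlapped, running from -3.53 (no count) to 6.59 in BMDM and from -1.13 to 0.92 in MG. Its fold change thus rests on the high BMDM libraries. Within BMDM, Ccr1 fell after 5 days of BLZ945 (-1.29 ± 0.24, adjusted p = 0.0048) and of IR+BLZ945 (-1.52 ± 0.27, 0.010) against vehicle, and Ccr7 rose after BLZ945 (1.60 ± 0.45, 0.039). Ccr7 fell again at recurrence after BLZ945, IR and IR+BLZ945, by 3.00, 4.54 and 3.20 on the log2 scale.

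Of 10 further CC ligands sought, Ccl21a had no count in any group, and Ccl20 had counts only in recurrent groups (MG and BMDM after IR, BMDM after IR+BLZ945). Their summed level was 146 to 1412 CPM in MG libraries and 171 to 3212 CPM in BMDM libraries. Between the populations 8 were tested. Ccl28, a mucosal ligand, was higher in MG at 5 days of IR+BLZ945 (10.40 ± 2.72, adjusted p = 0.011), and Ccl11, an eotaxin, was lower in MG at 5 days of IR (-7.39 ± 2.30, 0.039). Ccl28 had no count in the BMDM of that treatment and Ccl11 none in the MG, so the size of both fold changes is set by an empty group.

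NF-κB drives many of these ligands in macrophages, and genes of that pathway changed in BMDM. Of 20 tested, 4 rose after 5 days of BLZ945 against vehicle (5.51% of all genes passed), none fell, and the median change was 0.60. They were Relb (1.92 ± 0.34, adjusted p = 0.0031), Rela (1.00 ± 0.24, 0.018), Nfkbia and Nfkbib. Between 5 days and recurrence 4, 7 and 2 of the 20 fell in BMDM after BLZ945, IR and IR+BLZ945 and none rose. Of all genes, 6.82%, 12.5% and 3.69% passed there. Relb fell by 2.34 and 2.19 in the first and last and Rel by 2.21 after IR. Tnf, an NF-κB target, was higher in MG than in BMDM with vehicle (2.73 ± 0.50, adjusted p = 0.00018) and at 3 other stages, those of IR+BLZ945 at 5 days and at recurrence and of IR recurrence. Of 12 genes induced by IL-4 and STAT6, which also induce Ccl17, Ccl22 and Ccl24, 4 were lower in MG with vehicle. They were Pparg, Mgl2, Irf4 and Retnla, and 9.14% of all genes passed. In BMDM, Mgl2 rose after 5 days of BLZ945 (2.89 ± 0.68, adjusted p = 0.016) and fell at recurrence after BLZ945 (by 4.26) and IR (by 2.97). The part of these pathways in the ligand results was not tested.

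Immediate early genes, which can mark stress during cell isolation, fell at recurrence. In MG 5, 6 and 5 of 12 fell from 5 days to recurrence after BLZ945, IR and IR+BLZ945, and none rose. Of all genes, 8.24%, 11.6% and 28.1% passed there. In BMDM 3, 7 and 1 fell and none rose, with 6.82%, 12.5% and 3.69% of all genes. Their summed level in BMDM was 23995 and 31452 CPM after 5 days of IR, 11322 to 26174 with vehicle and 5322 to 10211 in IR recurrence. In MG it was 25397 and 28346 after 5 days of IR, 9833 to 26275 with vehicle and 9436 to 11152 in IR recurrence. Their part in the recurrence results of the ligands was not tested.

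Correlations among members are given as a description over the 23 libraries of each population, which fall into the same 7 stages and differ in depth. In BMDM the Pearson correlation of log2 levels was 0.986 between Ccl2 and Ccl7, 0.901 between Ccl2 and Ccl12 and 0.897 between Ccl17 and Ccl22, and the lowest was -0.620, between Ccl4 and Ccl22. In MG it was 0.906 between Ccl3 and Ccl4 and 0.850 between Ccl2 and Ccl7. Among all genes, those most like Ccl12 in BMDM were Pf4 (0.935), Rab3il1 (0.915) and Lilra5 (0.910). Those most like Ccl8 were Fcna (0.923), Cables1 (0.876) and Fcgr3 (0.859), and those most like Ccl24 were Mrc1 (0.838), Rcn3 (0.753) and Fcgr2b (0.744). Ccl17 was nearest to Ccl22, Mgl2 (0.892) and Lilra6 (0.869), Ccl22 to Myo1g (0.951), Sema4a (0.949) and Rasgrp4 (0.947), and Ccl5 to Serpinb9 (0.921), Spint2 (0.916) and Traf1 (0.913).

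In MG, Ccl3 was nearest to Ccl4, Ch25h (0.754) and Ccrn4l (0.741), and Ccl4 to Ccl3, Gch1 (0.812) and Maff (0.807). Ccl5 was nearest to Bst2 (0.812), Ly6i (0.766) and P2ry14 (0.760). Ccl2 in MG was nearest to Tceb1 (0.899), Higd1a (0.898) and Snx2 (0.896), and Ccl12 to Tmem126a (0.911), Vps29 (0.909) and Psmd8 (0.902). In BMDM, Snx2 (0.935) and Blvra (0.934) followed Ccl7 as the genes nearest to Ccl2.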

How the data were processed

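RNA from sorted MG and BMDM of 23 mice was sequenced, and the authors deposited raw counts per gene symbol for 46 libraries. The submitters' processing notes name CASAVA 1.8, STAR 2.5.0e, HTSeq, DESeq2 and build mm10. The gene annotation and the use of strand are not given in the sources used here. Libraries were grouped by the labels, and no column of another sample was present.

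The counts were tested with edgeR 4.0.16 (R 4.3.3, limma 3.58.1), with TMM scaling and robust quasi-likelihood fits. Genes were kept by filterByExpr (minimum count 10, minimum total 15). Separate fits covered MG (14534 genes), BMDM (14568 genes) and both populations (15901 genes), and p-values were adjusted by Benjamini-Hochberg over all genes of each of 39 comparisons, with a threshold of 0.05. They measure the spread between mice. The SE of a log2 fold change was derived from the quasi-likelihood test. Levels per kilobase use the length of the transcript shown by its coding sequence.

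Alternatives were DESeq2 1.42.0, RLE scaling, no filter, 1 fit over all libraries, terms for the Malat1 minus Lars2 level or the mouse number style, the mouse as a block, and leaving out each library or the 6 doubted ones. The libraries pair by mouse per the labels. The deviations of the 2 libraries of a mouse from their group means correlated at -0.06 to 0.66 (18 of 23 pairs over 0.1). In a group of 2 mice these deviations mirror each other, so both mice share 1 value. That value was 0.27 for IR at 5 days and 0.66 for recurrence after BLZ945, so the 23 values are not all separate. Tested on simulated data for BLZ945 at 5 days against vehicle in MG, with 200 changed genes among 13730, the fit recovered 99% of 16-fold and 31% of 4-fold changes. The simulated data gave all genes the same spread, drew the libraries independently and changed no low-count gene. Members and gene lists were chosen with earlier results of these data known. The text names all 10 members, and of the other lists genes that passed, plus the 3 genes most like a member by Pearson correlation. Some items are not reported here.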

Additional observations from a re-analysis of the deposited data

Results flagged for a closer look

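Of 80 groups of 4 libraries, 4 held a library whose distance from its nearest neighbour took up most of the group's range, and chance alone marks about 1 group in 20. Ccl4 in the BMDM of mouse 124 after 5 days of BLZ945 stood at 9.92, with the others at 7.76, 7.87 and 8.12. Ccl12 in the MG of mouse 65975 after 5 days of BLZ945 stood at 10.67, with the others at 7.77, 7.80 and 8.17. Ccl24 stood at 2.15 in the MG of mouse 68343 in IR recurrence, above 0.37, 0.61 and 0.62. Ccl24 stood at -2.60 in the BMDM of vehicle mouse 65966, below 4.13, 4.14 and 4.85.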

How the results depend on the processing

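No call changed direction under any alternative run. The 29 calls between MG and BMDM became 33 with the mouse as a replicate block, which kept all 29, and that block left the tests of the difference in response at 0. Against vehicle, the 3 calls in MG became 10 with DESeq2, 1 without the filter, 5 with the mouse number style and 5 without the doubted libraries. The 5 in BMDM became 11 with DESeq2, 2 without the filter, 8 in 1 fit over all libraries, 3 with Malat1 minus Lars2 and 8 with the number style. Between 5 days and recurrence, the calls with the Malat1 minus Lars2 term were 2 in MG (against 5, none of them shared) and 3 in BMDM (against 13). That term largely followed the stage, so it could not be told apart from recurrence. For combined against single treatment, the 1 call in MG became 5 with DESeq2 and 2 each in 1 fit over all libraries, with the number style and without the doubted libraries. The 5 in BMDM became 3 without the filter and 2 with Malat1 minus Lars2. The difference in response went from 0 to 3 with DESeq2. The cause of these shifts was not tested. With 1 library left out, calls ranged from 24 to 32 between the populations, 0 to 9 (MG) and 2 to 11 (BMDM) against vehicle, 2 to 8 and 8 to 18 at recurrence, 1 to 3 and 1 to 6 for the combination, and 0 to 2 for the response. Of all 61 calls, 26 held in each such fit. On simulated data with 4 mice a group, 27% to 31% of 4-fold changes were recovered, so changes of that size can go uncalled. Groups of 2 mice were not simulated. The simulated spread was the same for all genes and both populations. In the real counts the common coefficient of variation between mice was 0.484 in MG and 0.651 in BMDM. The share recovered in the real data may thus differ from the simulated share.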
